A study of Mus musculus with 1152 samples.

Results

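RNA of 10 genes for basement membrane proteins was examined in single wells of adult mouse brain. These were the network collagen chains Col4a1, Col4a2, Col4a5 and Col4a6, the collagens Col15a1 and Col18a1, the nidogens Nid1 and Nid2, and the proteoglycans Hspg2 and Agrn. They were taken by name, with no threshold on their values, from a table of 46517 genes, and all 10 were found in it. The study sorted fluorescent cells into 384-well plates and sequenced them by SMART-seq2, which reads whole transcripts of a sorted cell. The cells came from brain vessel fragments of adult C57BL/6 mice of both sexes, enriched with CD31-coated beads. They carried either Pdgfra-H2BGFP, a nuclear green reporter at the Pdgfra locus, or Tagl-CREERT2;Ai14, an inducible Cre with a red fluorescent reporter. No label ties a well to an animal or a line. Well names hold a set name and a plate position but match no sample title, so all wells were treated as 1 sample.

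Classes of wells were set by RNA markers, none of them among the 10 genes. A well passed a gate when at least 3 markers of a class reached 100 CPM (reads of a gene per 1000000 reads of the well). Of 1152 wells, 857 held at least 50000 reads and were kept, and 808 of these fell into 4 classes. There were 95 fibroblast wells (markers such as Dcn, Lum and Col1a1), 49 endothelial wells (Cldn5, Flt1, Pecam1), 24 mural wells (Rgs5, Acta2, Notch3) and 640 oligodendrocyte lineage wells (Olig1, Sox10, Mog). The fibroblast wells were split at 100 CPM of Slc6a13, a GABA and taurine transporter of leptomeningeal fibroblasts, into 28 Slc6a13-high and 67 Slc6a13-low wells. Lineage wells were staged as 247 precursors (Pdgfra at 100 CPM or more), 105 committed wells (Enpp6) and 244 mature wells (Mog), leaving 44 outside the stages. A further 40 wells passed the fibroblast gate together with an endothelial or mural gate and stood in none of the 4 classes.

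Because cells of 1 sample are not replicates, no test was made across wells. Each class level is the CPM of the summed reads of its wells, with an exact 95% Poisson interval that covers counting error only, as reads without molecular identifiers are not independent molecules. Exact binomial intervals of the share of wells with a read take wells as independent, which wells of 1 sample are not. They too cover counting error only, not differences between sets. A gene was called higher or lower between classes when the levels, with 1 CPM added to each, differed by a ratio of at least 2 and the higher level reached 10 CPM. The kept wells held 50002 to 1451280 reads (median 279874). By their column names the wells fell into 3 sets of 384, named 1025s_182s, 600s_182s and 613s. Kept wells of the first set had a median of 4017 detected genes, against 7519 and 6726 in the others. The sets contributed unequally, with 17 of the 28 Slc6a13-high wells but 3 of the 49 endothelial wells and no mural well from 600s_182s.

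RNA of other cell types was present in the vascular wells. The oligodendrocyte lineage gate was also passed by 47 fibroblast, 25 endothelial and 10 mural wells. Of the 24 mural wells, 22 also passed the endothelial gate, and their 10 endothelial markers summed to 10256 CPM, against 9704 CPM in endothelial wells. The 6 microglial markers summed to 4109 CPM in endothelial, 2312 CPM in mural and 565 CPM in fibroblast wells, with at least 3 of them at 100 CPM in 15 of 49, 12 of 24 and 4 of 95 wells. The 5 choroid plexus markers summed to 1133, 810 and 996 CPM in fibroblast, endothelial and mural wells. The 8 fibroblast markers summed to 8967 CPM in fibroblast wells and 344 CPM in endothelial wells, and none was at 0 in either. What these other transcripts contribute to the levels of the 10 genes was not tested.

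Basement membranes are thin sheets of matrix under epithelia and around vessels, muscle, fat and the surface of the brain. A laminin polymer bound to cell receptors and a collagen IV network form the sheet; nidogens bind laminin and collagen IV, and heparan sulphate proteoglycans hold growth factors and water. In the brain such sheets lie around capillaries, between endothelial cells, pericytes and astrocyte endfeet, and under the pia. Collagen IV is a trimer: the chains alpha-1 and alpha-2 form the common trimer, and alpha-5 and alpha-6 form part of others of restricted distribution.

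In GENCODE vM21 (GRCm38) the 10 genes lie on 6 chromosomes. Col4a1 (chr8:11198423-11312826, minus strand) and Col4a2 (chr8:11312805-11449287, plus strand) are head to head. Their RefSeq start sites lie 21 bases apart and the first exons overlap, so with no counting strand given in the sources used here, reads there cannot be told apart. Col4a5 (chrX:141475385-141689234, plus) and Col4a6 (chrX:141165403-141474076, minus) are also head to head, with RefSeq start sites 1343 bases apart. Col15a1 (chr4:47208161-47313167, plus), Hspg2 (chr4:137468769-137570630, plus) and Agrn (chr4:156165290-156197488, minus) share a chromosome. Col18a1 lies at chr10:77052178-77166548 (minus), Nid1 at chr13:13437551-13512269 (plus) and Nid2 at chr14:19751265-19811787 (plus). An exon of Col18a1 is overlapped on the opposite strand by Slc19a1, a folate transporter gene at 167 CPM in fibroblast, 20.0 CPM in endothelial and 153 CPM in mural wells, so part of the Col18a1 reads may be uncertain. The same holds for Nid2, where the overlapping protein-coding gene Rtraf was not found in the table by that name. Antisense genes also overlap exons of Nid1 (Gm48682) and Col15a1 (Gm12426).

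The sequences before the start sites of Col4a5, Col4a6 and Col15a1 are shown because Col4a6 and Col15a1 had the largest ratios of the 10 genes in the Slc6a13 split, and Col4a5 is the neighbour of Col4a6. They come from RefSeq promoter windows (GRCm38.p6), which held 9 of the 10 genes, and are printed 5′ to 3′ up to the first annotated exon. Capitals mark GGGCGG or CCAAT, read on either strand.
Col4a5, chrX:141475169-141475384, plus strand: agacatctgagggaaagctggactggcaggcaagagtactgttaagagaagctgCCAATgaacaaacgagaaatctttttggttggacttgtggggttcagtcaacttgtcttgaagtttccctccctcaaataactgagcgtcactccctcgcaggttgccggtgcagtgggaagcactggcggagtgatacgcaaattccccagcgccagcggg
Col4a6, chrX:141474077-141474326, minus strand: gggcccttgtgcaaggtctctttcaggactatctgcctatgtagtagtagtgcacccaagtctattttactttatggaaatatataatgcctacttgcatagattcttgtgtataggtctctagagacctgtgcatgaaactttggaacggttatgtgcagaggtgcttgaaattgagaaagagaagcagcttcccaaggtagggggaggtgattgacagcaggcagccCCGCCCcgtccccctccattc
Col15a1, chr4:47207762-47208011, plus strand: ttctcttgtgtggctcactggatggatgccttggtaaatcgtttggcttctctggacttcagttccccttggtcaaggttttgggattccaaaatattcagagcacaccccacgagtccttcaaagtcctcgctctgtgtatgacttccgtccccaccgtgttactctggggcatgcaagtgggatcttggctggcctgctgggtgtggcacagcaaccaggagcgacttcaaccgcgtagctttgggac
The Col4a5 stretch held 1 CCAAT match, the Col4a6 stretch 1 GGGCGG match and the Col15a1 stretch neither, and none held TATAAA. In whole windows, from 250 bases before to 50 after the start, GGGCGG occurred in 35.7%, CCAAT in 37.4% and TATAAA in 13.6% of 32851 promoters. Windows of Col4a1 and Col4a2 share 78 bases; Col4a1 had 1 GGGCGG and 1 CCAAT match, and Col4a2 had 3 and 1. A match is a description of the letters only.

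Fibroblast wells carried the broadest set of these transcripts. The 10 genes together reached 2998 CPM in fibroblast wells, 855 CPM in mural, 717 CPM in endothelial and 157 CPM in oligodendrocyte lineage wells. By well, the sum had a median of 2199 CPM in fibroblasts (0 to 17096 CPM), 376 CPM in endothelial wells (3.32 to 2882 CPM), 554 CPM in mural wells (0 to 3318 CPM) and 42.5 CPM in the lineage (0 to 2291 CPM). A median of 3 of the 10 genes reached 100 CPM in a fibroblast well, 1 in an endothelial, 2 in a mural and 0 in a lineage well. At least 5 of them did so in 28 of 95 fibroblast wells, 2 of 24 mural wells, no endothelial well and no lineage well. Every gene had wells at 0 CPM in each of the 4 classes, so for each of them the ranges of wells overlapped between classes.

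**Figure D1:**
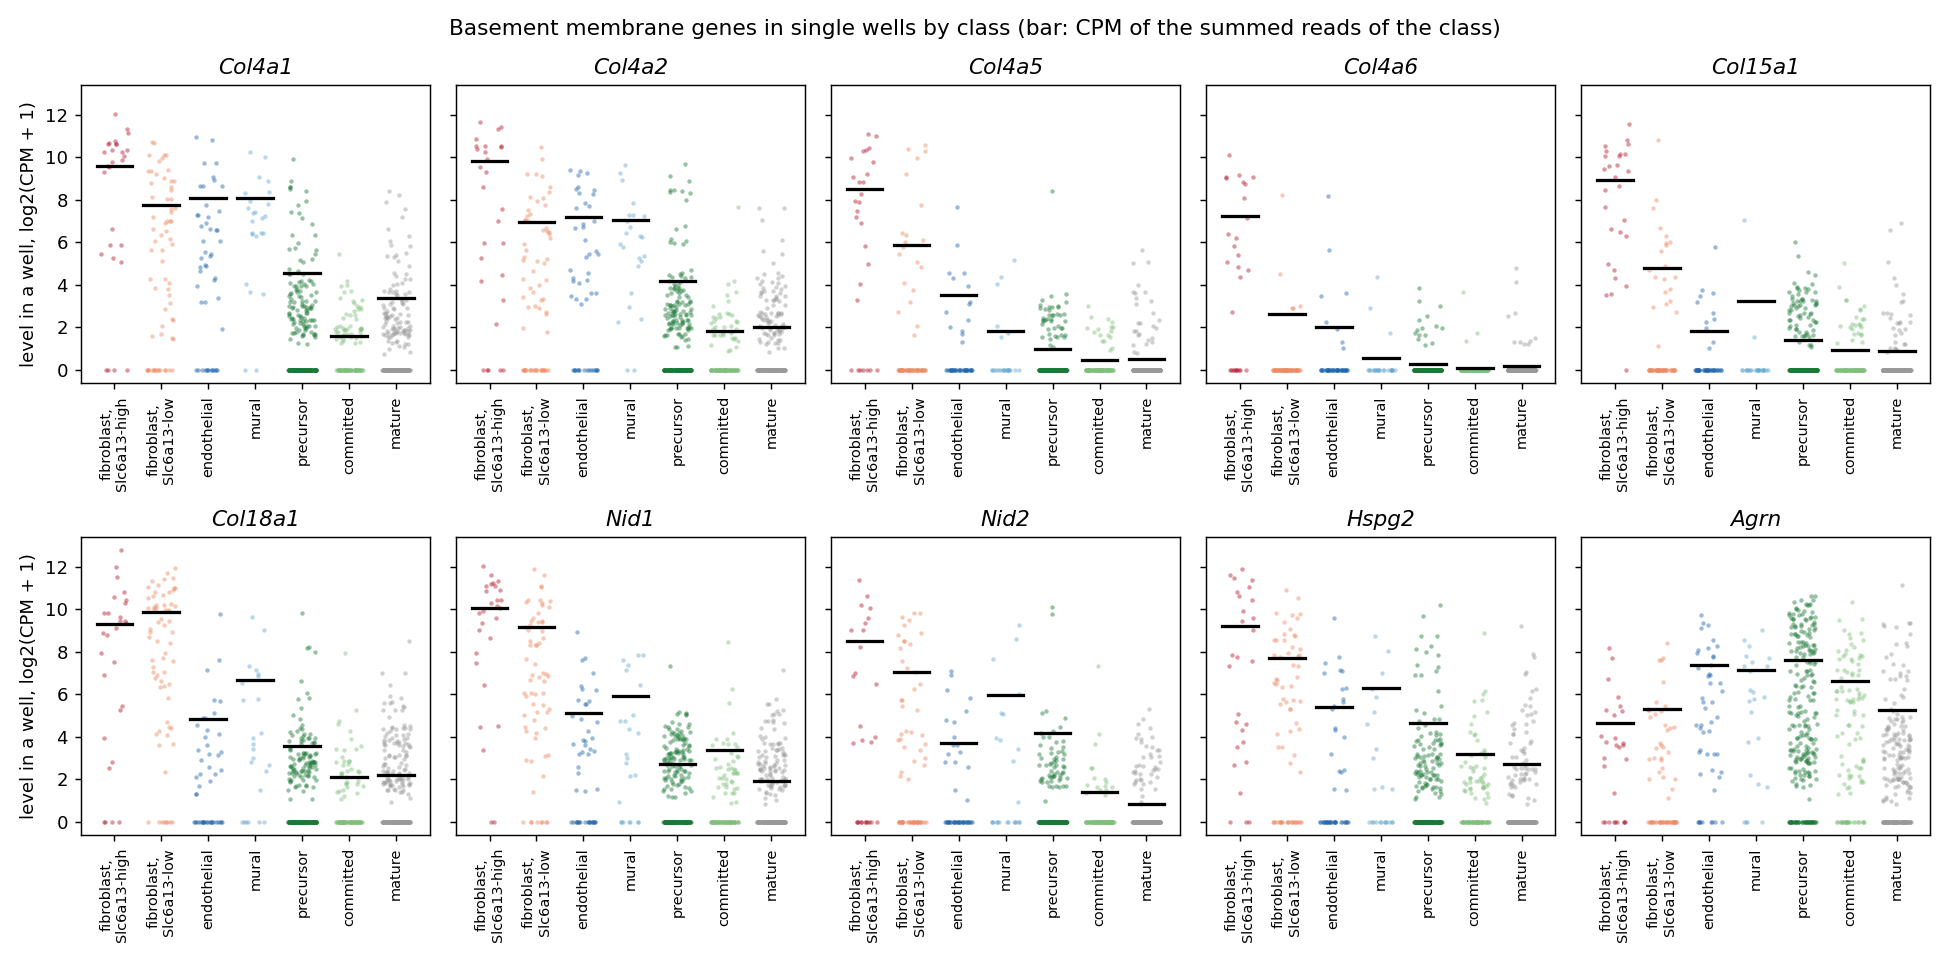
Each point is 1 well, with its level as log2(CPM + 1), for 28 Slc6a13-high and 67 Slc6a13-low fibroblast wells, 49 endothelial, 24 mural, 247 precursor, 105 committed and 244 mature wells; the bar is the CPM of the summed reads of the class on the same scale. Col4a6 and Col15a1 are concentrated in Slc6a13-high wells, Col18a1 and Nid1 are high in both kinds of fibroblast well, and Agrn has its highest bar in precursors.

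The make-up differed between classes on the scale of CPM per kilobase of exon, where levels of different genes can be set side by side. In fibroblast wells Col18a1 took 30.0% of the summed per-kilobase level and Nid1 23.5%, with Col4a1 at 11.0% and Col4a2 at 10.8%. In endothelial wells Col4a1 (39.7%) and Col4a2 (23.8%) led, and Agrn followed at 18.9%. Mural wells had the same order, at 32.1%, 17.5% and 13.4%. In the oligodendrocyte lineage Agrn took 62.3%, against 0.920% in fibroblasts.

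**Figure D2:**
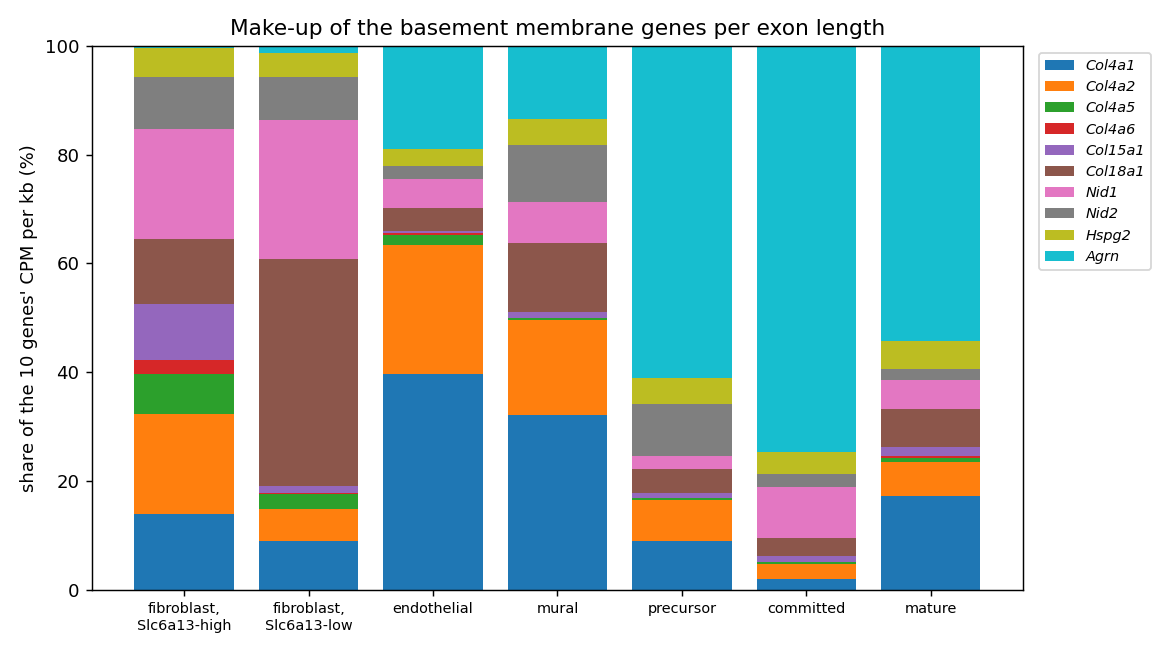
Bars divide the summed CPM per kilobase of exon of the 10 genes in each class into the share of each gene, in percent. Col18a1 and Nid1 fill most of the Slc6a13-low fibroblast bar, Col4a1 and Col4a2 most of the endothelial bar, and Agrn most of the precursor, committed and mature bars.

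The chains of the common collagen IV trimer, Col4a1 and Col4a2, were shared by the vascular classes. Col4a1 stood at 341 CPM (334 to 349) in fibroblast, 276 CPM (267 to 285) in endothelial, 272 CPM (261 to 283) in mural and 11.9 CPM (11.4 to 12.4) in lineage wells. Its median well held 96.8 CPM in fibroblasts (highest 4212), 37.0 CPM in endothelial wells (highest 1977) and 146 CPM in mural wells (highest 1214). The ranges of wells overlapped in these 3 classes, as for every one of the 10 genes. Thinned to 50000 reads a well, a Col4a1 read was present in 69.5% of fibroblast (exact binomial 95% interval 59.2 to 78.5), 65.3% of endothelial (50.4 to 78.3) and 87.5% of mural wells (67.6 to 97.3), against 18.1% of lineage wells (15.2 to 21.3). Col4a2, the partner chain, reached 298 CPM in fibroblast, 147 CPM in endothelial, 131 CPM in mural and 7.74 CPM in lineage wells, with median wells of 33.7, 17.8, 67.9 and 0 CPM. Per kilobase the ratio of Col4a1 to Col4a2 was 1.02 in fibroblasts, 1.67 in endothelial and 1.84 in mural wells. In single fibroblast wells 47 of 95 had both chains at 10 CPM or more, 20 only Col4a1, 10 only Col4a2 and 18 neither.

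Col4a5 and Col4a6, the X-linked chains, were highest in fibroblast wells among the 4 classes. In the 40 wells with the fibroblast gate and another vascular gate, outside these classes, they were at 35.5 and 0.847 CPM. Col4a5 stood at 126 CPM in fibroblast wells, 10.4 CPM in endothelial, 2.53 CPM in mural and 0.654 CPM in lineage wells. Its lowest and median fibroblast wells were at 0 and the highest at 2210 CPM, and 36 of 95 wells reached 10 CPM against 6 of 49 endothelial and 3 of 24 mural wells. Of the endothelial reads of Col4a5, 89.0% came from 3 wells. Col4a6 was lower, at 37.1 CPM in fibroblasts, 3.03 CPM in endothelial, 0.459 CPM in mural and 0.197 CPM in lineage wells. It reached 10 CPM in 19 of 95 fibroblast wells, with a highest well of 1122 CPM. Both X-linked chains were at 10 CPM in 14 fibroblast wells, Col4a5 alone in 22, Col4a6 alone in 5 and neither in 54.

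Col15a1 and Col18a1 encode related collagens that carry heparan or chondroitin sulphate chains, and the C-terminal fragment of Col18a1 is endostatin. Col18a1 was at 879 CPM (868 to 890) in fibroblast, 100 CPM (93.6 to 107) in mural, 27.9 CPM (25.2 to 30.8) in endothelial and 6.27 CPM in lineage wells. Its median fibroblast well held 474 CPM (0 to 7027), its median endothelial well 2.21 CPM (0 to 877) and its median mural well 10.7 CPM (0 to 784). Of its endothelial reads 89.7% came from 3 wells. The fibroblast wells stood mostly above the others, since 12.6% of them lay at or below the endothelial median. Col15a1 was at 129 CPM in fibroblasts (median well 1.16 CPM, highest 3046), 8.50 CPM in mural, 2.59 CPM in endothelial and 1.12 CPM in lineage wells, and all mural reads came from 2 wells. Only 6.12% of thinned endothelial wells held a Col15a1 read (1.28 to 16.9), against 38.9% of fibroblast wells (29.1 to 49.5). The fibroblast share varied by set, at 21.4% in 1025s_182s, 83.3% in 600s_182s and 27.6% in 613s.

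The nidogens link the laminin and collagen IV networks. Nid1 was at 681 CPM (671 to 691) in fibroblast, 60.3 CPM (55.2 to 65.7) in mural, 33.7 CPM (30.7 to 36.8) in endothelial and 5.16 CPM in lineage wells. The median fibroblast well held 242 CPM (0 to 4143), the median endothelial well 8.12 CPM (0 to 484) and the median mural well 7.49 CPM (0 to 228). A fibroblast well was at or below the endothelial median in 16.8% of cases. Nid2 followed the same order at 182, 61.3, 12.2 and 6.50 CPM, but 88.8% of its mural reads and 85.3% of its lineage reads came from 3 wells. Per kilobase Nid1 exceeded Nid2 2.78-fold in fibroblasts and 2.06-fold in endothelial wells, while the ratio was 0.733 in mural wells.

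The proteoglycans Hspg2 (perlecan, a component of most basement membranes) and Agrn (agrin, best known for gathering acetylcholine receptors at the nerve-muscle junction) had opposite patterns. Hspg2 was at 289 CPM (283 to 296) in fibroblast, 77.6 CPM (71.9 to 83.7) in mural, 41.2 CPM (37.9 to 44.7) in endothelial and 12.6 CPM in lineage wells. Its median well held 51.3 CPM in fibroblasts (0 to 3815), 0 in endothelial wells (highest 759) and 0.959 CPM in mural wells (highest 422). Agrn was at 164 CPM (157 to 170) in endothelial, 141 CPM (134 to 149) in mural, 105 CPM (104 to 106) in lineage and 35.6 CPM (33.4 to 38.0) in fibroblast wells. Its median well held 24.7 CPM in endothelial wells (0 to 846), 55.4 CPM in mural wells (0 to 515), 7.47 CPM in the lineage (0 to 2235) and 3.06 CPM in fibroblasts (0 to 338). The Hspg2 to Agrn ratio per kilobase was 5.27 in fibroblasts, 0.164 in endothelial, 0.356 in mural and 0.0783 in lineage wells.

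**Figure D3:**
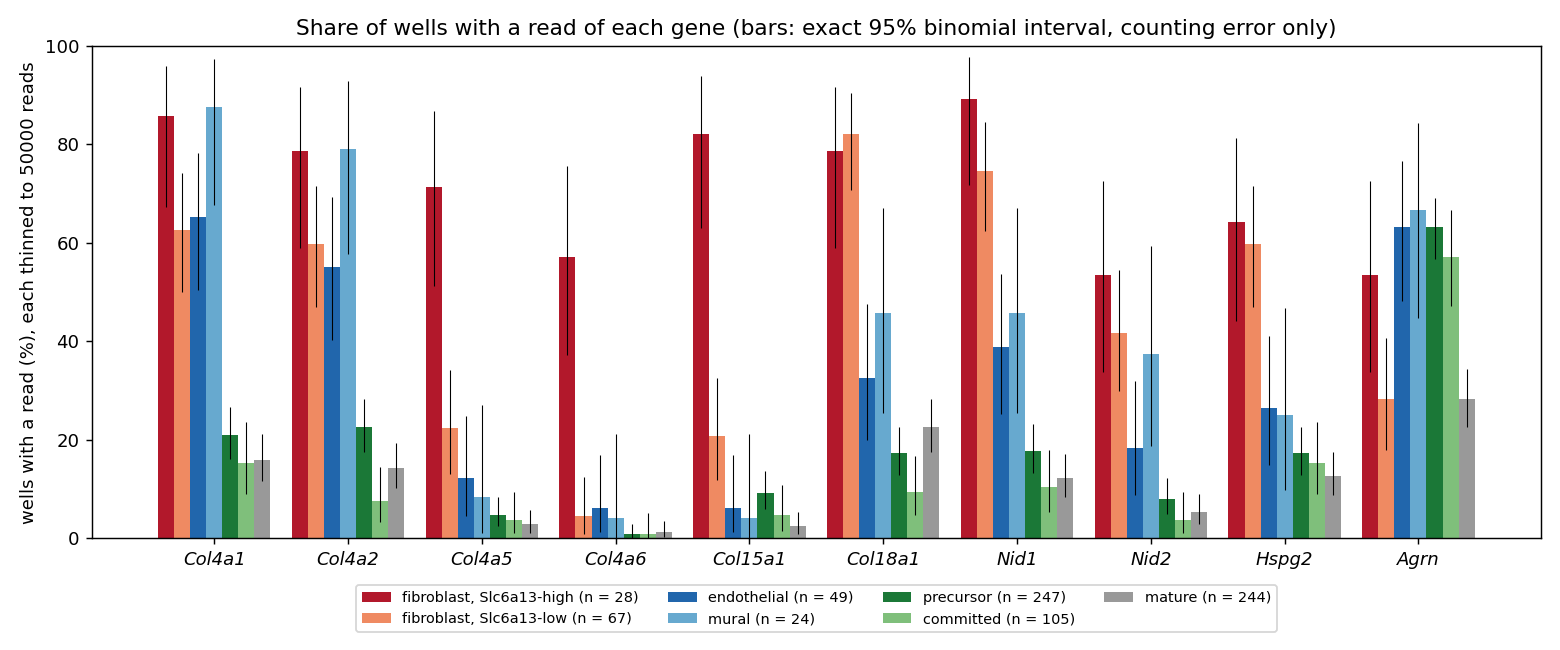
Bars give the percentage of wells with a read of each gene after each well was thinned to 50000 reads, with the exact 95% binomial interval, for the 7 classes named in the key. For Col15a1 the share is 82.1% in Slc6a13-high and 20.9% in Slc6a13-low fibroblasts, and for Agrn it is 63.2% in precursors and 28.3% in mature wells.

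Between fibroblast and endothelial wells, 8 of the 10 genes were called higher in fibroblasts and 1, Agrn, lower. Over all 12139 genes that reached 10 CPM in either class, 23.7% were called higher and 23.1% lower in fibroblasts. The log2 ratios were 5.18 for Col15a1, 4.93 for Col18a1, 4.30 for Nid1, 3.80 for Nid2, 3.47 for Col4a5, 3.24 for Col4a6, 2.78 for Hspg2 and -2.17 for Agrn. Col4a1 at 0.31 was not called, and Col4a2 at 1.02 lay at the limit: removal of any of 33 of the 144 single wells ended its call, with values from 0.76 to 1.26. Within set 1025s_182s the Col4a2 log2 ratio was -0.34 and within 613s it was 0.73. For Col4a1 the 2 sets pointed opposite ways, at 0.78 within 1025s_182s and -0.98 within 613s. The other 8 kept their direction in both sets, from 1.48 to 5.76 for those higher in fibroblasts and -2.92 and -1.42 for Agrn. Leaving out 1 well raised the ratio of Col4a5 to as much as 4.88, Col4a6 to 4.14, Col18a1 to 5.57 and Nid1 to 4.91. The median over the 10 genes was 3.35, against -0.03 over all genes tested.

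Against the oligodendrocyte lineage, which the Pdgfra reporter also marks through its precursors, 9 of the 10 genes were called higher in fibroblasts and Agrn lower, with 22.4% higher and 24.3% lower among 12350 genes. The log2 ratios of the 9 ran from 4.41 for Hspg2 to 6.92 for Col18a1, and Agrn was at -1.53. All 9 kept their direction within each of the 3 sets, the lowest value being 1.75 for Nid2 in 613s. Agrn was lower in all 3 sets, at -1.86, -1.52 and -0.46. Without 1 lineage well Nid2 was at 5.94. The median over the 10 genes was 5.04, against -0.07 over all genes.

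Between endothelial wells and the lineage, 8 of the 10 genes reached 10 CPM in either class, and 6 of these were called higher in endothelial wells and none lower. Over all 12347 genes 21.9% were higher and 26.7% lower. Col4a1 (log2 ratio 4.42) and Col4a2 (4.08) led, followed by Col4a5 (2.79), Nid1 (2.49), Col18a1 (1.99) and Hspg2 (1.63). Nid2 at 0.81 and Agrn at 0.64 were not called. Set 600s_182s gave 3 of the 49 endothelial but 317 of the 640 lineage wells. The 6 called genes were higher within both 1025s_182s and 613s, but sizes differed, as for Nid1 at 5.05 and 1.38. Col4a5 was at 1.94 and 1.04 in these sets. Of the uncalled, Nid2 was at 3.19 and -0.16, and Agrn at 1.05 and 0.96. Removal of either of 2 single wells ended the Col4a5 call, with a lowest ratio of 1.38, and leaving out 1 lineage well took Nid2 to 2.15. Col18a1 fell to as little as 1.35 and Nid1 to 1.88 without 1 well. Microglial markers were 4109 CPM in these endothelial wells and 219 CPM in the lineage wells.

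The mural comparison sets wells that nearly all held endothelial RNA beside endothelial wells without a mural gate. Nid2 (61.3 against 12.2 CPM, log2 ratio 2.24) and Col18a1 (100 against 27.9 CPM, 1.81) were called higher and Col4a5 (2.53 against 10.4 CPM, -1.70) lower. Over all 11559 genes 15.1% were higher and 20.9% lower, and 8 of the 10 genes reached 10 CPM. The 3 calls among these 8 lie near those shares and are not read as a result about the 10 genes. Col18a1 was higher in both sets that held mural wells, at 2.96 in 1025s_182s and 1.45 in 613s, but it was at -0.62, lower in mural wells, when wells of several vascular gates were kept in each class. With markers at 200 CPM it was at 0.52, below a ratio of 2. Nid2 was at -0.61 and 2.91 within the sets. Leaving out 1 well moved Col18a1 to as much as 2.44 and Nid2 to as little as 1.60. Removal of either of 2 wells ended the Col4a5 call, with a ratio as small as -0.28. Nid1 (0.82) and Hspg2 (0.90) were not called, but reached up to 1.44 and 1.26 when 1 of 3 and 1 of 5 single wells, respectively, was left out. Col15a1, below 10 CPM in both classes, was 2.64-fold higher in mural wells and had a log2 ratio of -1.68 without 1 mural well. By summed reads the log2 ratio was -0.02 for Col4a1, -0.16 for Col4a2 and -0.21 for Agrn. Their median wells were higher in the mural class, at 146 against 37.0, 67.9 against 17.8 and 55.4 against 24.7 CPM, and within 1025s_182s Col4a2 was at -0.75.

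**Figure D4:**
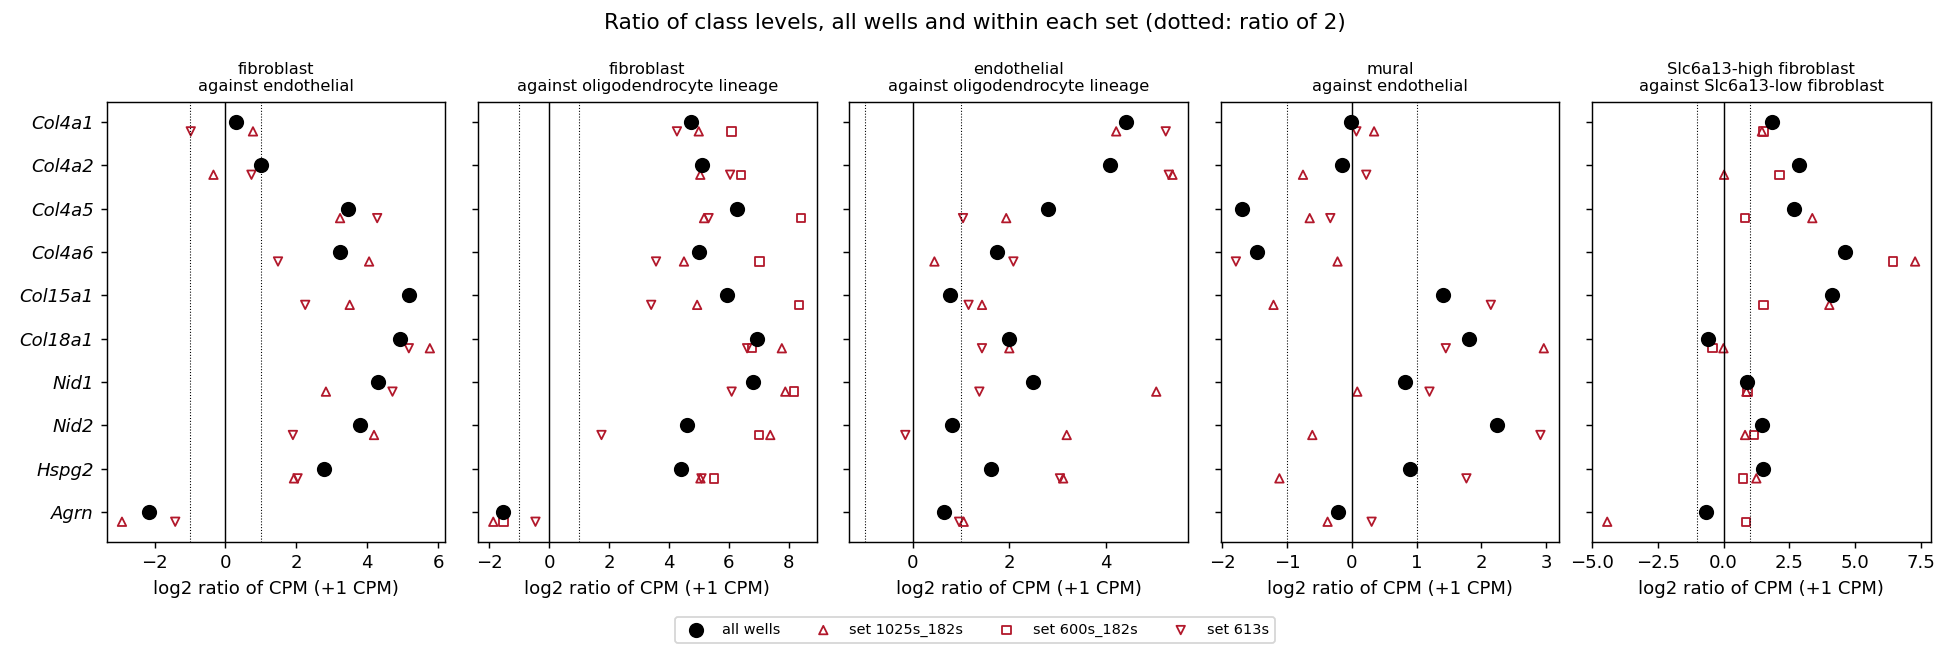
Filled points give the log2 ratio of class levels (CPM with 1 CPM added) for each gene in the 5 comparisons; open symbols give the same within each set of wells that had at least 5 wells in both classes, and dotted lines mark a ratio of 2. Within 1025s_182s the Col4a2 point for fibroblast against endothelial wells is at -0.34, on the other side of 0 from its value over all wells.

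The 10 genes differed in how far their levels moved with the split of the fibroblast wells by Slc6a13. A gene called higher in Slc6a13-high wells could still be spread over both kinds. For Hspg2 64.3% of Slc6a13-high and 59.7% of Slc6a13-low wells held a read after thinning. The lowest Slc6a13-high wells held 124 and 162 CPM of Slc6a13 and the highest Slc6a13-low wells 95.9 and 39.1 CPM. Called higher in Slc6a13-high wells were 7 of the 10 genes and none lower, where 19.3% of 11412 genes were called higher and 38.8% lower. The median log2 ratio was 1.67 over the 10 genes and -0.43 over all genes tested.

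Col4a6 showed the largest ratio of the 10, 151 CPM (141 to 162) against 5.20 CPM (4.26 to 6.29), a log2 ratio of 4.62. It reached 10 CPM in 17 of 28 Slc6a13-high wells and in 2 of 67 Slc6a13-low wells. In 1025s_182s it was at 213 against 0.372 CPM, and in 600s_182s at 199 against 1.29 CPM, but in 1025s_182s all Slc6a13-high reads came from 1 of the 7 wells and the median well was at 0. In 600s_182s 15 of 17 Slc6a13-high wells held a read. Single wells weighed on both levels: leaving out 1 well took the Slc6a13-low level to 0.494 CPM or the Slc6a13-high level to 99.5 CPM, with log2 ratios from 4.02 to 6.67. Of the Slc6a13-low reads 98.1% came from 3 wells. Col15a1 was at 496 CPM (478 to 514) against 27.1 CPM (24.9 to 29.5), log2 ratio 4.14, with median wells of 475 and 0 CPM. It reached 10 CPM in 27 of 28 and 16 of 67 wells. The levels of Col15a1 depended on the set: the 7 Slc6a13-low wells of 600s_182s held 350 CPM and the 35 of 1025s_182s held 10.0 CPM, and the within-set log2 ratios were 1.53 and 4.02. Without 1 well the ratio over all wells ranged from 3.70 to 5.02.

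Col4a5 was at 370 against 57.5 CPM (log2 ratio 2.67), with median wells of 210 and 0 CPM and 20 of 28 against 16 of 67 wells at 10 CPM. Within sets its ratio was 3.38 in 1025s_182s and 0.83 in 600s_182s. Col4a2 was at 916 against 125 CPM (2.86) and Col4a1 at 782 against 218 CPM (1.84), with median wells of 288 against 14.7 CPM and 915 against 59.0 CPM. Col4a1 kept a ratio of 1.46 and 1.52 within the sets, but Col4a2 was at 0.02 within 1025s_182s and 2.14 within 600s_182s. Hspg2 (586 against 207 CPM, 1.50) and Nid2 (367 against 131 CPM, 1.48) were also called over all wells. Hspg2 was at 1.25 within 1025s_182s and 0.75 within 600s_182s. Nid2 was at 0.82 within 1025s_182s, where all Slc6a13-high reads came from 1 well, and at 1.15 within 600s_182s. For Nid2, 71.1% of the Slc6a13-high reads came from 3 wells and leaving out 1 well lowered the ratio to 0.95.

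Col18a1, Nid1 and Agrn were not called by this split. Col18a1 was at 627 CPM in Slc6a13-high and 949 CPM in Slc6a13-low wells (log2 ratio -0.60), with median wells of 517 and 407 CPM, and 22 of 28 and 58 of 67 wells at 10 CPM. Nid1 was at 1062 and 574 CPM (0.89) with median wells of 1020 and 112 CPM. Agrn was at 23.9 and 38.9 CPM (-0.68), but its median well was higher in Slc6a13-high wells, at 10.8 against 0 CPM, as was its thinned share of wells with a read, at 53.6% against 28.4%. The sets pointed opposite ways for Agrn, with no read in 7 Slc6a13-high wells against 20.5 CPM in 1025s_182s and 52.3 against 28.3 CPM in 600s_182s. Leaving out 1 of 2 single wells raised Nid1 to at most 1.21, and leaving out 1 well took Agrn to -1.60, both past the ratio of 2. By summed reads the Col18a1 to Col15a1 ratio per kilobase was 1.14 in Slc6a13-high and 31.6 in Slc6a13-low wells, and that of Col4a1 to Col4a2 0.757 and 1.55. In Slc6a13-high wells, however, 50.9% of the Col4a2 reads came from 3 wells. The median Slc6a13-high well was higher for Col4a1 than for Col4a2, at 915 against 288 CPM.

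Other transcripts moved with this split. The 8 fibroblast gate markers summed to 13134 CPM in Slc6a13-high and 7805 CPM in Slc6a13-low wells. Dcn was at 4313 against 2096 CPM and Col3a1 at 1338 against 440 CPM, while Lum was lower, at 939 against 1318 CPM. The 12 oligodendrocyte lineage markers summed to 3294 against 1261 CPM, and 19 of 28 against 28 of 67 wells passed that gate. The 5 astrocyte markers summed to 2124 CPM in Slc6a13-high wells (26.3 to 14432 by well) and 120 CPM in Slc6a13-low wells, with Slc1a3 at 1272 against 29.3 CPM and Gja1 at 566 against 57.8 CPM. Aqp4, which marks astrocytes, was at 26.1 and 0.340 CPM. Endothelial markers summed to 161 against 980 CPM, of which Emcn made 12.0 and 784 CPM, while Pecam1 was at 9.58 and 7.20 CPM. Choroid plexus markers summed to 325 against 1359 CPM. Set membership moved too, with 17 of 28 Slc6a13-high wells and 7 of 67 Slc6a13-low wells from 600s_182s. Their part in the result was not tested.

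**Figure D5:**
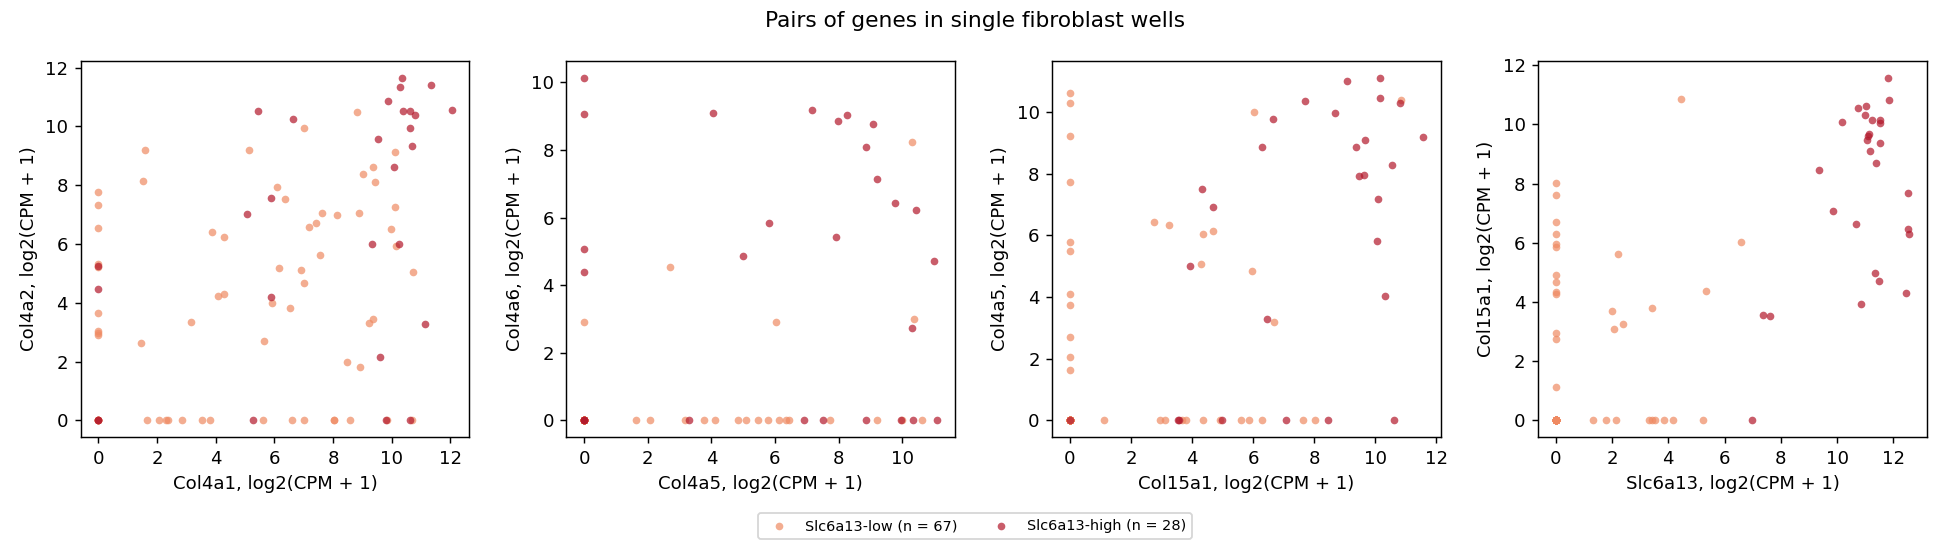
Each point is 1 of 95 fibroblast wells, with both axes as log2(CPM + 1), coloured by the Slc6a13 split (28 high, 67 low). Col15a1 reached 10 CPM in 27 of the 28 Slc6a13-high wells, and wells with Col4a5 and Col4a6 together are nearly all Slc6a13-high (13 of 14 at 10 CPM in both).

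Within the oligodendrocyte lineage Agrn was the only one of the 10 genes above 25 CPM at any stage. It was at 193 CPM (190 to 196) in precursors, 96.7 CPM (94.1 to 99.4) in committed and 36.7 CPM (35.4 to 38.0) in mature wells. Median wells held 22.6, 22.4 and 2.60 CPM, and highest wells 1586, 1299.5 and 2235 CPM, so the ranges overlapped at every stage. Thinned shares with a read were 63.2%, 57.1% and 28.3%. The precursor level of Agrn was 213 CPM in 1025s_182s, 196 CPM in 600s_182s and 168 CPM in 613s. In 1025s_182s, however, 67.0% of these reads came from 3 of 26 wells, the median well was at 0 and 34.6% of thinned wells held a read. The stages also differed in set, as 186 of 247 precursors, 74 of 105 committed and 47 of 244 mature wells came from 600s_182s. Within that set the thinned share was 67.2% in precursors, 64.9% in committed and 38.3% in mature wells. Col4a1 and Col4a2 were at 22.6 and 17.0 CPM in precursors, 2.04 and 2.56 CPM in committed and 9.37 and 3.00 CPM in mature wells, with every median well at 0. Of the Nid2 reads in precursors 93.5% came from 3 wells, which held its level at 16.8 CPM. Fibroblast markers summed to 166 CPM in lineage wells, and their part in these low levels was not tested.

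Among fibroblast wells some pairs occurred together more than others. With thinned counts the Spearman correlation over 95 wells was 0.57 for Col15a1 and Col4a5, 0.52 for Col4a1 and Nid1, 0.44 for Col4a1 and Col4a2, 0.44 for Col4a5 and Col4a6, 0.26 for Nid1 and Nid2, 0.11 for Col15a1 and Col18a1 and 0.07 for Hspg2 and Agrn. Within the 28 Slc6a13-high wells Col15a1 and Col4a5 were at 0.44, and within the 67 Slc6a13-low wells at 0.23. In the same order of wells, Col4a5 and Col4a6 were at -0.06 and 0.29, and Nid1 and Nid2 at 0.48 and 0.10. Col4a1 and Nid1 were at 0.61 and 0.39, and Col4a1 and Col4a2 at 0.49 and 0.28. These are descriptions over sparse counts from 1 sample, and wells of a pair share their depth before thinning and their set.

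The genes most like each of the 10 over the 808 wells, by Spearman correlation of thinned counts among 11291 genes, were as follows. Col4a1 had Itih5 (0.45) and Ifitm2 among its 3 nearest genes, and Col4a2 was nearest to Itih5 (0.47), Col4a1 and Eng, an endothelial co-receptor for TGF-beta. Col4a5 was nearest to Col15a1 (0.40), Serpinh1 and Prelp, Col4a6 to Fam180a (0.41), Clec3b and Col15a1, and Col15a1 to Col4a5, Col6a1 and Col3a1, the last of which was a gate marker. Col18a1 had Colec12 (0.49) and Lamb1 among its 3 nearest genes, Nid1 was nearest to Abca9 (0.51), Lamb1 and Serpinh1, and Nid2 to Gm15851 (0.41), Thbs1 and Sod3. Hspg2 was nearest to Prelp (0.37), Pcolce, an enhancer of procollagen processing, and Serpinh1. Agrn was nearest to Sh3bp4 (0.37), Gpr17 and Neu4, of which Gpr17 marks committed oligodendrocyte precursors. Wells of all 4 classes enter these coefficients, so differences between classes are part of them.

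Related genes were counted in 6 lists, to be read beside the share of all genes called in the same comparison. That share was 23.7% higher and 23.1% lower for fibroblast against endothelial wells, 22.4% and 24.3% for fibroblasts against the lineage, and 21.9% and 26.7% for endothelial wells against the lineage. It was 15.1% and 20.9% for mural against endothelial wells, and 19.3% and 38.8% for the Slc6a13 split. Counts near those shares are not a result about a list. Medians are over the genes of a list that reached 10 CPM, and over all genes the median was -0.03 for fibroblast against endothelial wells and -0.43 for the split.

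Laminin chains polymerise beside the collagen IV network. Of 11 laminin genes 9 reached 10 CPM in fibroblast or endothelial wells, with 5 higher and 2 lower in fibroblasts (median log2 ratio 1.96). Lama1 was at 359 against 6.77 CPM and Lama2 at 529 against 10.7 CPM. Lama3 (0.114 against 36.1 CPM) and Lama5 (7.18 against 54.1 CPM), an endothelial laminin chain, were lower. Against the lineage 7 of 7 were higher, led by Lamb1 at 622 against 2.24 CPM, and endothelial wells had 6 of 8 higher than the lineage, led by Lamb2 at 295 against 4.23 CPM. Mural wells had 2 higher and 2 lower of 8, with Lamc3 at 69.8 against 23.3 CPM and Lamb1 at 2.87 against 33.3 CPM. In Slc6a13-high wells 4 of 7 were higher and none lower (median 1.85), with Lama1 at 1228 against 116 CPM and Lama4 at 259 against 21.7 CPM.

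Other basement membrane proteins, a list of 17, had 6 of 13 higher and none lower in fibroblasts against endothelial wells (median 0.76), with Col6a2 at 355 against 1.23 CPM and Col6a1 at 416 against 42.6 CPM. Against the lineage 11 of 13 were higher and 1, Smoc1, lower at 22.2 against 94.5 CPM. Endothelial wells had 7 of 9 higher and 1 lower than the lineage, led by Tinagl1 at 386 against 1.79 CPM. In mural wells 2 of 10 were higher and 5 lower than in endothelial wells, with Npnt, an integrin ligand, at 66.8 against 8.65 CPM and Col6a1 at 1.26 against 42.6 CPM. The Slc6a13 split gave 2 of 14 higher and 7 lower (median -1.33, against -0.43 over all genes), where Vwa1 was at 1689 against 392 CPM, and Tinagl1 (5.40 against 268 CPM) and Frem1 (1.22 against 56.3 CPM) were lower. Col7a1, the anchoring fibril collagen, was at 87.1 CPM with no read in Slc6a13-low wells, where 3 reads would be 0.146 CPM.

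The collagen folding and export list of 15 had 8 of 15 higher and none lower in fibroblasts than in endothelial wells (median 1.10), with Pxdn, a peroxidase that crosslinks collagen IV, at 162 against 1.95 CPM and Serpinh1, a collagen chaperone, at 368 against 52.0 CPM. Against the lineage 7 of 15 were higher, and endothelial wells had 3 of 14 higher and 2 lower than the lineage. Mural wells had 0 of 13 higher and 3 lower than endothelial wells, led by P3h1 at 0.689 against 28.1 CPM. The Slc6a13 split gave 3 higher and 3 lower of 15 (median 0.41), among them Plod1, a lysyl hydroxylase, at 560 against 126 CPM, and Colgalt1 at 13.4 against 150 CPM.

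Receptors, a list of 17 with integrins, dystroglycan and discoidin receptors, had 8 of 14 higher and 4 lower in fibroblasts than in endothelial wells (median 1.11), with Ddr2, a collagen receptor, at 274 against 37.5 CPM and the laminin receptor chain Itga6 at 12.5 against 282 CPM. The counts were 7 higher and 4 lower of 14 for fibroblasts against the lineage, 6 and 5 of 14 for endothelial wells against the lineage, and 3 and 3 of 13 for mural wells, where Itga7 was at 122 against 5.55 CPM. The Slc6a13 split gave 4 and 3 of 14 (median 0.22), with Itga3 at 341 against 38.5 CPM and Bcam, which binds laminin alpha-5, at 8.19 against 140 CPM. Musk, the receptor tyrosine kinase of the agrin pathway, was at 39.4 CPM in Slc6a13-high wells with no read in Slc6a13-low wells.

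Heparan sulphate enzymes, a list of 11, had 4 higher and 1 lower of 10 in fibroblasts against endothelial wells (median 0.68), with Sulf1, an extracellular sulphatase, at 490 against 81.6 CPM. Against the lineage 2 were higher and 2 lower of 10, with Sulf2 at 114 against 601 CPM. Endothelial wells had 2 higher and 3 lower of 10 than the lineage, mural wells 1 higher and 5 lower of 9 than endothelial wells, and the Slc6a13 split 3 and 3 of 10 (median -0.42). Proteases and inhibitors, a list of 12, had 7 of 11 higher and none lower in fibroblasts (median 1.16), with Mmp14, a membrane-bound collagenase, at 480 against 10.5 CPM. The counts were 5 higher and 3 lower of 11 against the lineage, 1 and 4 of 8 for endothelial wells, 1 and 3 of 8 for mural wells, and 1 and 4 of 11 for the split (median -0.57), where Timp4 was at 69.0 against 29.0 CPM and Adamts1 at 36.4 against 251 CPM.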

How the data were processed

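The table deposited by the authors holds raw read counts per gene and well. Alignment and counting used TopHat2 2.1.1, SAMtools 0.1.18, Subread 1.4.6-p5 and featureCounts, on GRCm38 or mm10, per the submitters' processing notes. The annotation, the strand setting and the handling of reads with several matches were not given in the sources used here. From the deposited counts, CPM was computed on the total of a well or class with Python 3.11.15 and pandas 2.3.3. Wells needed at least 50000 reads. Gates needed 3 markers at 100 CPM. Class levels were summed counts, with 1 CPM added for ratios, and shares came from counts thinned to 50000 reads (seed 1), with exact intervals from scipy 1.17.1. edgeR 4.0.16 gave scaling factors for an alternative only. Exon lengths and positions came from GENCODE vM21, in which 42052 symbols of the table were found. The script was tested on simulated data.

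The 10 genes, the marker and pathway lists and the tests were chosen with earlier results of these data known. All 10 genes are named, with the 3 most correlated genes of each (a gene among these is not reported here) and up to 2 genes at each end of a list among those called; other genes named were chosen after their values were seen. The alternatives were other gates, depths, class averages, scalings and sets. Promoter sequence is printed only outside annotated exons, for genes chosen after the values were seen. Protein sequences were not analysed here.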

Additional observations from a re-analysis of the deposited data

Results flagged for a closer look

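The 295 wells under 50000 reads, which entered no comparison, also held reads of the 10 genes. Together they stood at 643.5 CPM (Poisson 95% interval 625 to 662) from 4781 reads, and 261 of the 295 wells had at least 1 such read. Nid1 was at 186 CPM, Col4a2 at 119 CPM and Col4a1 at 90.5 CPM there. No class was given to these wells.

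In the comparison of mural with endothelial wells, Col15a1 had a log2 ratio of -1.21 within set 1025s_182s and 2.14 within set 613s. Hspg2 had -1.12 and 1.77. These opposite directions drew attention; the difference between the sets was not tested, each set held 12 mural wells, and the sets are not groups of the study. All mural reads of Col15a1 came from 2 wells, with 1 read in 1025s_182s and 73 reads from 1 well in 613s. For Hspg2, 97.5% of the mural reads of each set came from 3 wells.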

How the results depend on the processing

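Of 50 ratios of the 10 genes, 35 were called. Under the alternatives 648 of 654 values of these were not reversed, a count that includes log2 ratios of 0, which have no direction. Such values arose with the median CPM of the wells, as for Col4a5 and Col4a6 in fibroblast against endothelial wells and against the lineage. Of the 654 values, 611 were at a ratio of 2 or more in size, in either direction. Both counts include the setting with no 10 CPM minimum, which changes calls only. Its 35 log2 ratios repeat the main values, so they could not reverse or fall below a ratio of 2. The scalings (nuclear gene totals and TMM factors) shift all ratios of a comparison by about the same amount. The counts are therefore not a measure of how stable the ratios are. The 6 reversals were Col4a5 in mural against endothelial wells at 0.75 with markers at 50 CPM and at 1.05 with wells of several vascular gates kept; Col18a1 there at -0.62 with such wells kept; Nid2 there at -0.30 without set 613s (3.09 without 1025s_182s) and -0.61 within 1025s_182s; and Col4a2 in fibroblast against endothelial wells at -0.34 within 1025s_182s. The cause was not tested. With the median CPM of the wells, 5 genes were called for fibroblast against endothelial wells (9 otherwise), 5 against the lineage (10 otherwise) and 3 for endothelial against lineage wells (6 otherwise), as most median wells are near 0. Over all genes, that setting called 541 higher and 1179 lower of 3121, 651 and 1156 of 2946, and 968 and 870 of 3248, respectively. The mural comparison, with 3 calls, gave 5 with no 10 CPM minimum, 5 within 613s, 5 without set 1025s_182s and 5 without vascular wells with microglial, astrocyte or choroid plexus markers, an alternative chosen after seeing the data. Over all genes the main setting called 1744 higher and 2417 lower of 11559. In the order just given, the alternatives called 2770 and 3772 of 46517, 2332 and 3173 of 11490, 2212 and 3219 of 11556, and 2838 and 3443 of 10582. Leaving out each set in turn gave 8 to 10 calls for fibroblast against endothelial, 10 to 10 for fibroblast against lineage, 5 to 6 for endothelial against lineage, 2 to 5 for mural against endothelial and 5 to 8 for the Slc6a13 split. In that order, genes called higher among all 10899 to 12434 tested were 3032 to 3836, 2742 to 3175, 2724 to 2988, 1808 to 2739 and 2228 to 2417. Those called lower were 2868 to 3300, 2855 to 3632, 3009 to 4444, 2395 to 3219 and 4405 to 5681. edgeR's TMM scaling moved the median of all genes in the Slc6a13 split from -0.43 to -0.17, with 8 genes called, fibroblast against lineage from -0.07 to -0.19 and endothelial against lineage from -0.08 to -0.20. Over all genes the TMM setting called 2697 higher and 3937 lower of 11347 in the split. With the median CPM of the wells, calls higher among all calls moved from 50.6% to 31.5% for fibroblast against endothelial, from 47.9% to 36.0% against the lineage, from 41.9% to 96.4% for mural wells and from 33.2% to 45.3% for the split. Sets with under 5 wells of a class gave no value of their own. No paired analysis was possible because the labels give no groups and no replicate numbers.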
